A study of Mus musculus with 412 samples.

Results

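The 37 genes of the mouse mitochondrial chromosome were described in single sensory neurons that innervate the colon. They were chosen as the rows of the deposited expression table whose Ensembl identifiers map to symbols starting with mt-, which gave 37 of 45513 genes. Of these, 2 encode rRNAs, 13 encode proteins and 22 encode tRNAs. The plus strand held 28 of them and the minus strand 9, namely mt-Nd6 and 8 tRNAs.

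The study traced colonic neurons of C57BL/6J mice with Fast Blue, a retrograde dye injected into the colon wall at laparotomy. Dorsal root ganglia (DRG) of thoracolumbar segments T10-L1 (TL) and those of lumbosacral segments L5-S2 (LS) were dissociated as separate cultures, single dye-positive neurons were picked by hand, and polyadenylated RNA was sequenced as full-length cDNA in 6 pooled library plates. The deposited table held 325 neurons, 167 TL and 158 LS. All neurons shared strain, tracer and surgery, and the animals' age, sex and number are not given in the sources used here. No neuron is tied to an animal by the labels, so TL and LS are 1 sample each, neurons are not replicates of a segment, and no test between groups was possible. Values are given as the lowest, the median and the highest over neurons, with each comparison repeated inside plates 2 to 6, which held neurons of both segments; plate 1 held 5 TL neurons and no LS neurons.

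The mitochondrial genome is a compact circle copied and transcribed inside the organelle. Both strands are read as long precursors, and the tRNAs that punctuate them are cut out to release the rRNAs and mRNAs, most of which then receive a short poly(A) tail. The proteins are core subunits of respiratory complexes I, III and IV and of the ATP synthase (complex V), and all other subunits, complex II included, come from nuclear genes. Sensory neurons with long axons depend on this machinery for ATP. In single-cell work the share of RNA from the mitochondrial chromosome also serves as a sign of cell condition.

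Expression levels below are per length: each deposited value was turned back from log2 and rescaled so that all genes of a neuron sum to 1000000. Whole reads could be recovered from the same values. Neurons held between 416049 and 12059169 recovered reads on genes (median 2867096), of which 816 to 315145 (median 78404) lay on mitochondrial genes. The number of genes above 0 ranged from 6291 to 17193 (median 13658). The neuronal markers Tubb3 and Uchl1 were above 0 in 325 of 325 neurons, and the summed level of 8 neuronal markers ranged from 2458 to 31885. Neurons of plate 6 stood apart in their mitochondrial values, and 1 TL neuron carried endothelial markers at a summed level of 21458.

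Part of the mitochondrial chromosome has a near-identical copy in the nuclear genome, which bears on how the levels can be read. In build GRCm38, 7 annotated pseudogenes on the minus strand of chr1:24611535-24616197 follow the order of chrM:6381-11042, a stretch of 4662 bases. The stretch covers the 3′ end of mt-Co1, the 5′ part of mt-Nd4 and the whole of 11 genes between them, which are 6 mRNAs and 5 tRNAs. The first 75 bases of mt-Co2 (chrM:7013-7087, plus strand) and of its copy Gm28661 (chr1:24615491-24615565, minus strand) are shown because 75 bases is the length of a sequenced read and both windows are the same sequence. The first 60 bases of mt-Nd3 (chrM:9459-9518, plus strand) and of Gm28438 (chr1:24613060-24613119, minus strand) are shown because they hold the only difference between those genes, T3C, counted from the first base of mt-Nd3 with the mitochondrial base given first. Its position is in capitals.

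mt-Co2 bases 1 to 75: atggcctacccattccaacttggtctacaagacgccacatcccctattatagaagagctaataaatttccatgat
Gm28661 bases 1 to 75: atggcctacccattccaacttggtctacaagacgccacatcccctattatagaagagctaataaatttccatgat
mt-Nd3 bases 1 to 60: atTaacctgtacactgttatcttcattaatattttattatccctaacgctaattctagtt
Gm28438 bases 1 to 60: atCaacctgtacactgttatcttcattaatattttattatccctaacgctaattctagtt

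Over the length of the copy, Gm28661 and mt-Co2 matched at 681 of 681 bases, Gm10925 and mt-Atp6 at 678 of 678, and Gm28437 and mt-Co3 at 783 of 783. Gm10222 matched mt-Nd4l at 294 of 294 bases, and Gm28439 matched mt-Nd4 at 876 of 876. Gm28438 matched mt-Nd3 at 344 of 345 bases, and Gm29216 matched the end of mt-Co1 at 486 of 492, its 6 differences lying between T1056A and A1066T. Among all 75-base windows of each gene, 607 of 610 for mt-Co2, 604 of 607 for mt-Atp6, 709 of 710 for mt-Co3, 268 of 274 for mt-Nd3 and 220 of 223 for mt-Nd4l also occurred in an annotated nuclear transcript. A read from these windows cannot be told apart by sequence. The same count was 802 of 1304 for mt-Nd4, 586 of 1471 for mt-Co1, 55 of 964 for mt-Nd2 and 29 of 1750 for mt-Nd5, and 0 for mt-Nd1, mt-Nd6, mt-Cytb and both rRNAs. For mt-Atp8 it was 0 of 130, and no pseudogene was annotated at that place of the copy. Only annotated transcripts were searched, not the genome between them.

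The 7 tRNAs whose values the later text turns on are given next at full length, read from the same build in the direction of the gene, with the anticodon in capitals. The first 3 had the highest mean levels, mt-Tw and mt-Tc had 2 of the 3 largest LS to TL ratios, and mt-Td and mt-Tk were the least detected. They lie at chrM:3772-3842 (minus strand), chrM:15356-15422 (minus strand), chrM:2676-2750 (plus strand), chrM:4950-5016 (plus strand), chrM:5192-5257 (minus strand), chrM:6942-7011 (plus strand) and chrM:7700-7764 (plus strand).

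mt-Tq: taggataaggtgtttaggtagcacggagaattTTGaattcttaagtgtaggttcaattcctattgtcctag
mt-Tp: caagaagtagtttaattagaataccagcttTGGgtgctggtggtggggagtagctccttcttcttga
mt-Tl1: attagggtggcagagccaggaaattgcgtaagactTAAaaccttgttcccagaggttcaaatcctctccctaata
mt-Tw: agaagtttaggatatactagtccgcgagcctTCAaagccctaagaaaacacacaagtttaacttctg
mt-Tc: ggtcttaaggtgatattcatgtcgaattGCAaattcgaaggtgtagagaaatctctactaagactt
mt-Td: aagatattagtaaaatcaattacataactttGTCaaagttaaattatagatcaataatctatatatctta
mt-Tk: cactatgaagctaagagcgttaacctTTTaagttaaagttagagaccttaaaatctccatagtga

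The tRNA genes are 59 to 75 bases long, so none is longer than 1 read.

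Relative levels were led by the rRNA of the large mitochondrial ribosomal subunit. mt-Rnr2 ran from 453 to 76309 over the 325 neurons with a median of 21349, and its level exceeded that of the next gene, mt-Co1, in 324 of 325 neurons. mt-Rnr1, the rRNA of the small subunit, had a median level of 2485 (0 to 15894). The rRNAs together took a median of 52.4% of the mitochondrial signal (19.9% to 88.0%), the mRNAs 43.6% (9.67% to 77.0%) and the tRNAs 3.52% (0% to 19.8%). Counted as reads, which weights long genes more, the medians were 59.0% for rRNAs, 40.8% for mRNAs and 0.181% for tRNAs.

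**Figure D1:**
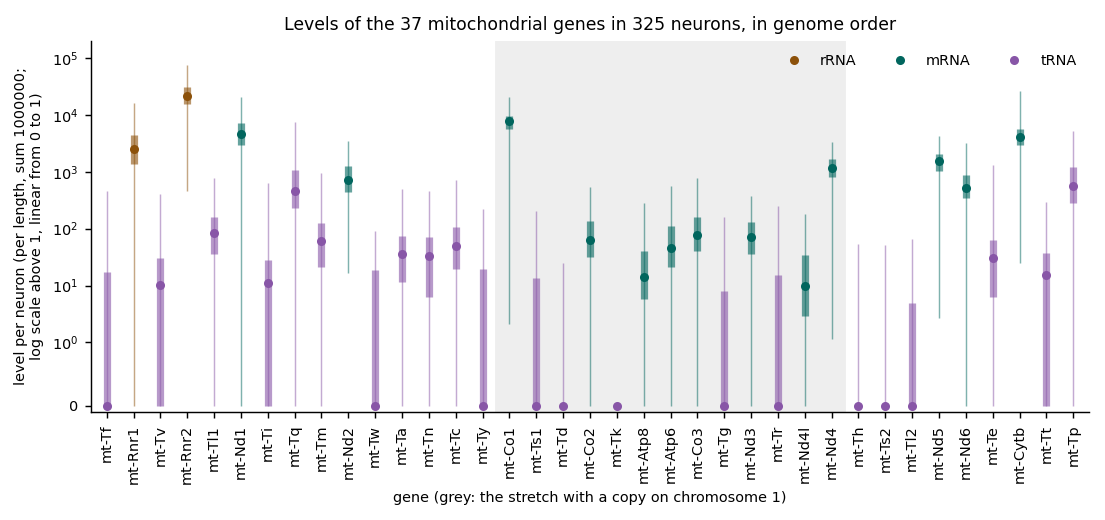
Level of each of the 37 mitochondrial genes, in the order of the chromosome. Points are medians over 325 neurons, thick bars the middle 50% of neurons and thin bars the lowest and highest neuron; the axis is logarithmic above 1 and linear from 0 to 1. Grey marks the genes lying wholly or partly in the stretch with a copy on chromosome 1. mt-Rnr2 is highest with a median of 21349, and the 6 mRNAs wholly in the grey stretch have medians from 9.80 to 76.2, below every other mRNA.

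Complex I, the NADH dehydrogenase that feeds electrons from NADH into the chain, has 7 of the 13 mRNAs. mt-Nd1 was highest among them with a median level of 4687 (0 to 20574), followed by mt-Nd5 at 1518 (2.65 to 4203) and mt-Nd4 at 1167 (1.17 to 3306). mt-Nd2 had a median of 721 (16.9 to 3499), and mt-Nd6, the one mRNA coded on the minus strand, 519 (0 to 3154). The remaining pair was far lower. mt-Nd3 had a median level of 72.2 (0 to 367) and mt-Nd4l one of 9.80 (0 to 178).

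Cytochrome b, the mitochondrial subunit of complex III, was coded by mt-Cytb at a median level of 4039 (24.5 to 26261). Complex IV, the cytochrome c oxidase that passes electrons to oxygen, has its catalytic core coded by mt-Co1, mt-Co2 and mt-Co3. mt-Co1 was the highest mRNA with a median level of 7826 (2.07 to 20381). Its partners mt-Co3 and mt-Co2 had medians of 76.2 (0 to 784) and 62.5 (0 to 537). The complex V mRNAs, which code for subunits of the membrane part of ATP synthase, were also low, mt-Atp6 at a median of 46.3 (0 to 560) and mt-Atp8 at 14.1 (0 to 277).

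Neighbours among these 15 levels kept their order of medians in all 5 plates for 10 of the 14 steps. mt-Nd1 exceeded mt-Cytb in 221 of 325 neurons and in 4 of 5 plates, mt-Cytb exceeded mt-Rnr1 in 243 neurons and 4 plates, and mt-Co3 exceeded mt-Nd3 in 215 neurons and 4 plates. mt-Nd3 and mt-Co2 were not ordered, since mt-Nd3 had the higher median but was the higher gene in 142 of 325 neurons and 2 of 5 plates. The widest step, 6.81-fold, lay between mt-Nd6 and mt-Co3, and mt-Nd6 was the higher of the pair in 321 of 325 neurons.

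That step separated the mRNAs wholly inside the copied stretch from all the others. The 6 inside mRNAs had lower medians than the 5 wholly outside and the 2 partly inside, and in 317 of 325 neurons (97.5%) the highest inside mRNA was below the lowest outside mRNA. Summed over genes, the inside mRNAs had a median level of 277 and the outside mRNAs one of 11960, and the inside sum was the lower in 325 of 325 neurons. mt-Atp8, 1 of the 6, lies at a place of the copy with no annotated transcript, so its windows could not be found there. The interval between mt-Co2 and mt-Atp6, where mt-Atp8 begins, had 233 bases on both chromosomes. The genome sequence of that interval was not searched. How reads that match several places were counted is not given in the sources used here, and its part in these levels was not tested.

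The pseudogenes themselves carried reads, and their levels followed those of the mitochondrial genes to unequal degrees. Gm28661 had a median level of 48.5 beside 62.5 for mt-Co2, Gm10925 one of 54.9 beside 46.3 for mt-Atp6, and Gm28437 one of 83.0 beside 76.2 for mt-Co3. Of the reads counted on each pair over all neurons, mt-Co2 took 55.6%, mt-Atp6 44.0%, mt-Co3 48.0% and mt-Nd4l 41.8%. In these 4 pairs the reads were near-equal. mt-Nd3, which shares nearly all its windows with Gm28438 as well, took 88.4%. For the genes that reach beyond the stretch, mt-Co1 took 99.2% and mt-Nd4 98.8%. Across 325 neurons Spearman's rho of member and copy was 0.97 for mt-Co2, 0.96 for mt-Atp6 and 0.97 for mt-Co3. It was 0.83 for mt-Nd4l, 0.67 for mt-Nd3, 0.59 for mt-Co1 and 0.73 for mt-Nd4. Within plates 2 to 6 rho ranged from 0.69 to 0.93 for mt-Co2, 0.63 to 0.90 for mt-Atp6 and 0.74 to 0.93 for mt-Co3. Ranges were 0.16 to 0.76 for mt-Nd4l, -0.05 to 0.85 for mt-Nd3, 0.77 to 0.88 for mt-Co1 and 0.62 to 0.83 for mt-Nd4. Both counts of a pair come from 1 library and share its depth. The 7 copies together took a median of 0.0334% of a neuron's signal (0% to 0.319%), so adding them to the mitochondrial genes moved the median share from 4.73% to 4.76%.

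**Figure D2:**
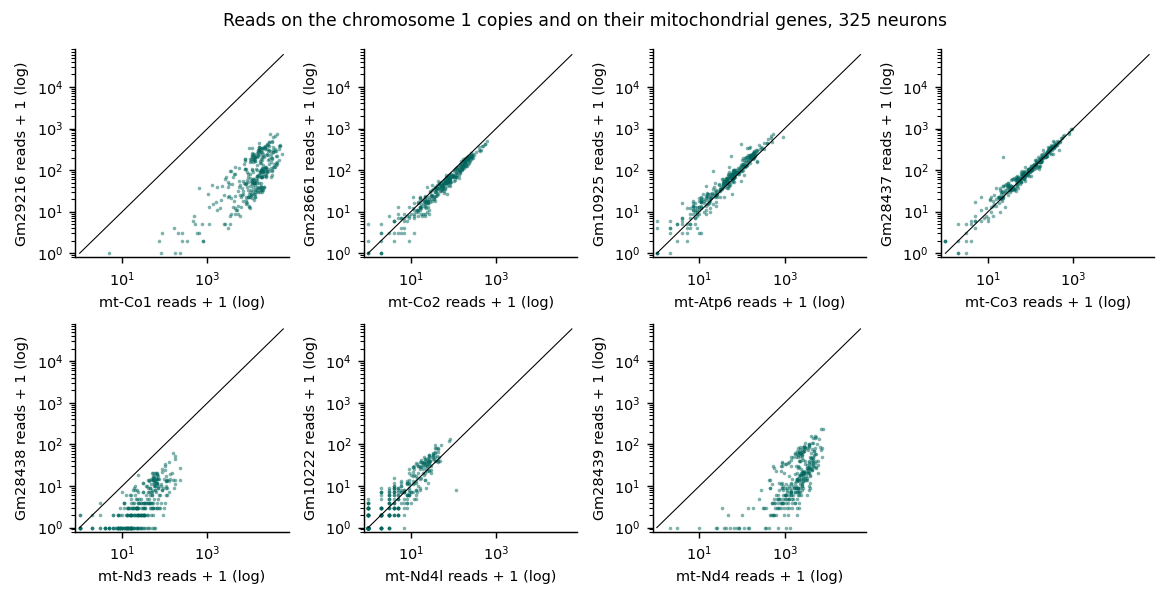
Recovered reads on each of 7 chromosome 1 pseudogenes (vertical) against reads on the matching mitochondrial gene (horizontal), both plus 1 on log axes; 1 point is 1 of 325 neurons and the line marks equal reads. mt-Co2, mt-Atp6, mt-Co3 and mt-Nd4l lie along the line, taking 41.8% to 55.6% of the reads of their pair, whereas mt-Co1 and mt-Nd4 lie far below it with 99.2% and 98.8%.

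Transfer RNAs, which carry amino acids to the mitochondrial ribosome, were detected unevenly. The libraries were made from polyadenylated RNA. Whether reads on tRNA genes, here and in the comparisons below, came from free tRNAs or from longer transcripts was not tested. mt-Tp (proline), mt-Tq (glutamine) and mt-Tl1 (leucine) had the highest mean levels, with medians of 565 (0 to 5120), 455 (0 to 7574) and 82.6 (0 to 790). mt-Tq and mt-Tp had at least 1 read in 316 and 312 of 325 neurons, and both are coded on the minus strand. Strand here is that of the gene, and whether counting used the strand of reads is not given in the sources used here. The 8 minus-strand tRNAs together had a median level of 1262 and the 14 plus-strand tRNAs one of 252. Most of that difference lay in mt-Tp and mt-Tq. The other minus-strand tRNAs had medians from 0 for mt-Ty and mt-Ts1 to 49.0 for mt-Tc, below plus-strand mt-Tl1 and mt-Tm (61.0). At the other end, mt-Tk (lysine) had 0 reads in all 325 neurons, which allows a read in up to 0.923% of neurons as 3 counts of the total (exact 95% upper bound 1.13%), mt-Td (aspartate) had 5 reads in 5 neurons, and mt-Ts2 (a serine tRNA) had 80 reads. mt-Tk and mt-Td lie inside the copied stretch, and mt-Ts2 lies outside it. The 5 tRNAs inside had a summed median level of 16.1, and the 17 outside, mt-Tp and mt-Tq included, one of 1511. All tRNAs other than mt-Tq and mt-Tp had median counts of 0 to 7 reads. Of the 37 genes, 26 had a read in over 50% of neurons; after each neuron was thinned to 400000 reads, 16 did. Intervals and limits cover counting error only.

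The rRNAs and mRNAs were correlated across neurons, and the tRNAs to very unequal degrees. Spearman's rho with the summed level of the other members was 0.86 for mt-Rnr2, 0.80 for mt-Rnr1 and 0.68 to 0.91 over the 13 mRNAs, with mt-Nd4 highest. Over the 21 tRNAs with a read it ran from 0.03 for mt-Td to 0.72 for mt-Tq and mt-Tp. rRNA and mRNA sums had a rho of 0.81 and tRNA and mRNA sums one of 0.76 over the 325 neurons. mt-Nd6 and mt-Nd5, which are coded on opposite strands and overlap at their ends, had a rho of 0.87. These values are descriptions, since all members of a neuron share its library and its total.

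Altogether the 37 genes took a median of 4.73% of a neuron's signal, from 0.0739% to 13.2%, and the middle 50% of neurons lay between 3.42% and 6.97%. The table had been filtered by the authors before deposit, and neurons removed then are not analysed here. Before clustering, the authors also left out some of the deposited neurons for contamination by satellite glia, the cells that wrap DRG neurons. Those neurons are included here. Plate medians were 4.26% in plate 1 (5 neurons), 4.66% in plate 2, 4.73% in plate 3, 4.07% in plate 4 and 3.87% in plate 5, against 7.48% in plate 6. Plate 6 was thus the plate that differed, and it did so in both segments.

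**Figure D3:**
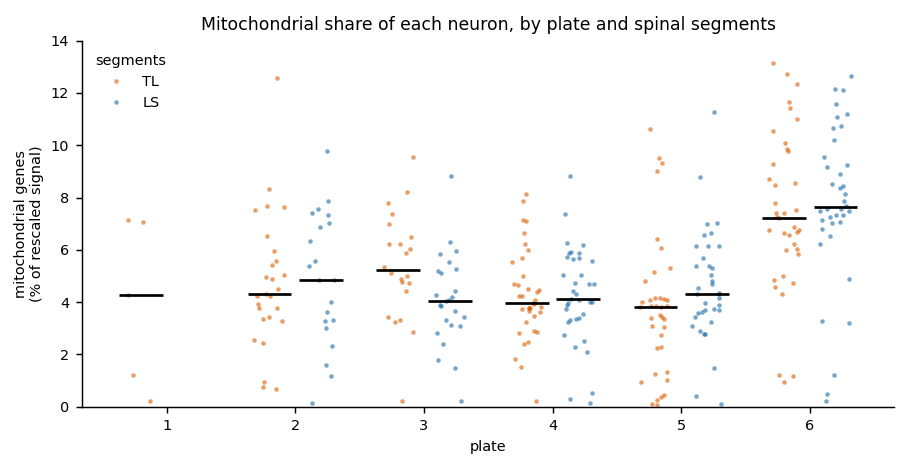
Share of signal on the 37 mitochondrial genes (vertical, %) in each of 325 neurons, by library plate and spinal segments; horizontal bars are medians. Plate 6 medians are 7.23% in TL and 7.62% in LS, while medians of the other plates lie between 3.8% and 5.23%; LS and TL points overlap in each of plates 2 to 6.

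Most tested members were higher in plate 6, by unequal folds. Of 32 members at a mean level of 10 or more, 29 were at least 1.5-fold higher in plate 6 than over plates 2 to 5 and 0 were lower by that fold; of all 7794 genes tested, 6.84% were higher and 3.05% lower. In recovered reads scaled to 1000000 the count was 13. This comparison was chosen after its values were seen. mt-Rnr2 was 1.66-fold and mt-Rnr1 2.01-fold higher, mRNAs outside the copied stretch 1.4- to 2.37-fold, and the 6 mRNAs inside it 2.12- to 6.94-fold with a median of 5.30-fold. Of the mRNAs partly inside it, mt-Nd4 was 1.61-fold higher and mt-Co1, the most abundant mRNA, 1.20-fold. The 7 chromosome 1 copies were 4.47- to 11-fold higher. Among the tRNAs, mt-Ts1 (a serine tRNA inside the stretch) was 13.6-fold higher, with means of 50.1 and 3.68, mt-Tq 6.09-fold and mt-Tp 2.86-fold, while mt-Tw had a ratio of 0.861. Plate 6 was neither the deepest plate nor the one with the most genes, with medians of 2475396 reads and 13704 genes above 0. Its median summed level of the nucleus-retained RNAs Malat1, Neat1 and Meg3, 852, was above those of plates 1 to 5 (81.3 to 719). A plate is 1 pooled library, and the part of these values in the higher share was not tested.

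Thoracolumbar and lumbosacral neurons had near-equal shares. TL neurons ran from 0.0739% to 13.2% with a median of 4.64%, and LS neurons from 0.116% to 12.7% with a median of 4.84%, a ratio of medians of 1.04. The ranges overlapped almost fully. The LS median was the higher in 4 of 5 plates, at 4.85% against 4.32% in plate 2, 4.10% against 3.95% in plate 4, 4.32% against 3.8% in plate 5 and 7.62% against 7.23% in plate 6. Plate 3 went the other way, at 4.04% in LS against 5.23% in TL.

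Of the 2 rRNAs and 13 mRNAs, 0 passed a 1.5-fold ratio of means between LS and TL, where 6.02% of 7752 genes were higher in LS and 6.44% lower. Their ratios ran from 0.878 for mt-Rnr1 to 1.21 for mt-Nd5. mt-Rnr2 ran from 453 to 76309 in TL neurons (median 20947) and from 584 to 64816 in LS neurons (median 21905). mt-Co1 had medians of 7575 in TL (2.07 to 20381) and 8012 in LS (39.8 to 17058). mt-Cytb had the higher median in TL, 4218 (37.8 to 26261) against 3987 (24.5 to 11924) in LS. In each of these genes the segments' ranges overlapped.

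The tRNAs differed from that pattern. Of the 31 members tested, 11 were at least 1.5-fold higher in LS (background 6.02%) and 0 were lower (6.44%), and all 11 were tRNAs. Among 16 tRNAs tested, 13 had a mean of 10 or more in both segments and 8 of those were among the 11, while mt-Tw, mt-Ty and mt-Tr passed the filter only through LS. The largest ratio was that of mt-Tw (tryptophan), 2.68, with means of 17.2 in LS and 6.43 in TL. mt-Ty (tyrosine) had a ratio of 2.5 with means of 19.2 and 7.66, and mt-Tc (cysteine) one of 2.43 with means of 109 and 45.1. The abundant tRNAs mt-Tp and mt-Tq differed less, by 1.66 and 1.51, and mt-Te (glutamate) had a ratio of 0.967.

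The tRNA difference was present in most plates but varied between them. Of the 11 called tRNAs, 7 were higher in LS in each of plates 2 to 6, namely mt-Tl1, mt-Ti, mt-Tm, mt-Tw, mt-Tn, mt-Tc and mt-Ty. The summed tRNAs had medians of 1882 in LS (0 to 14961) and 1216 in TL (0 to 9390), so the groups overlapped over nearly their whole range. Their ratio of means was 1.18 in plate 2, 1.01 in plate 3, 1.64 in plate 4, 2.11 in plate 5 and 1.72 in plate 6. Without plate 6, 8 tRNAs were called in place of 11.

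Equal depth was also looked at, by thinning each neuron to 400000 reads. Of the 16 tRNAs tested, 11 then had a ratio of mean reads of at least 1.5. These were not the same 11, since mt-Tf entered at 1.56, with means of 0.196 and 0.126 reads, and mt-Tm left at 1.43. Among the tRNAs with the largest ratios, which were picked for that and so add no support, mt-Tc had a read in 87 of 158 LS neurons (55.1%, exact 95% interval 47.0% to 63.0%) and in 50 of 167 TL neurons (29.9%, 23.1% to 37.5%). mt-Tw had one in 31 of 158 LS neurons (19.6%, 13.7% to 26.7%) and 11 of 167 TL neurons (6.59%, 3.33% to 11.5%). These intervals cover counting error alone and are no comparison of the segments, which are 1 sample each. In recovered reads scaled to 1000000, where only 15 members reached a mean of 10, 1 tRNA was called. Within Gfra3 neurons 5 of the 16 tRNAs passed 1.5-fold. Within Piezo2 neurons 11 did, with mt-Ta at 1.67 in place of mt-Tr at 1.20. Markers of satellite glia, the cells that wrap DRG neurons, moved with the segment, since 8 of 9 tested were lower in LS and their summed median was 1428 in LS (0.407 to 61347) and 2565 in TL (0 to 100432); reads per neuron had medians of 3202868 and 2709660. Their part in the tRNA difference was not tested.

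**Figure D4:**
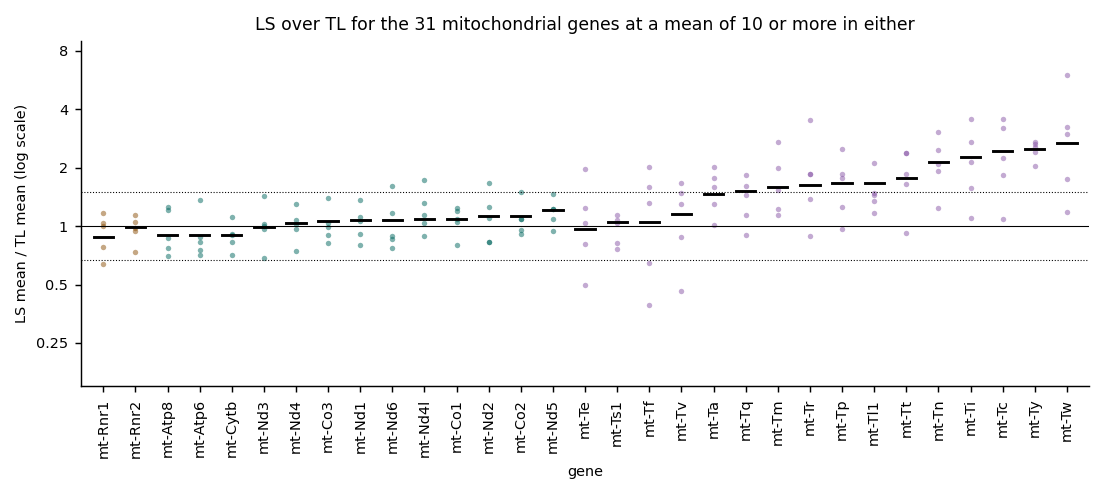
Ratio of the LS mean to the TL mean level (vertical, log scale) for the 31 mitochondrial genes at a mean of 10 or more in either segment, ordered within rRNAs, mRNAs and tRNAs. Black bars are ratios over all neurons, points the ratios within plates 2 to 6, and dotted lines mark 1.5-fold. rRNAs and mRNAs lie between 0.878 and 1.21, and 11 of 16 tRNAs lie above the upper dotted line, up to 2.68 for mt-Tw.

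Neurons were then grouped by Gfra3, which encodes the receptor for artemin, and Piezo2, which encodes a mechanically gated channel, each counted as present at a level of 10 or more. Gfra3 neurons (158) had a median mitochondrial share of 4.66% and Piezo2 neurons (120) one of 5.47%, a ratio of 0.852. The 25 neurons with both had a median of 3.81%, and the 22 with neither one of 1.21%. The Gfra3 median was the lower in 4 of 5 plates; in plate 2 it was the higher, by 0.54 on the log2 scale. Split by segment, the medians were 4.82% and 4.87% in TL and 4.32% and 5.85% in LS, with ratios of 0.991 and 0.738. Whether the ratio differed between segments was not tested.

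Single members differed little between the classes. Among the 31 tested, 1 was at least 1.5-fold lower in Gfra3 neurons and 0 were higher, against 11.2% and 8.8% of 7895 genes, or 20% in either direction. That member was mt-Tf (phenylalanine), with means of 9.28 and 18.5 and medians of 0 and 7.42. It passed the filter only through Piezo2 neurons. Of the 29 members with a mean of 10 or more in both classes, 0 were called. Of the mRNAs, 12 of 13 and both rRNAs had ratios under 1, from 0.811 for mt-Cytb (means 4153 and 5120) through 0.830 for mt-Co1 (7234 and 8717) to 0.985 for mt-Co3, and mt-Nd6 had a ratio of 1.07. Of 8 satellite glia markers tested, 6 were higher in Gfra3 neurons and 1, S100b, was lower, and their summed level had a median of 963 (0.407 to 94019) in Gfra3 and 2241 (0 to 43927) in Piezo2 neurons. Their part in the share was not tested.

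The share also went with the number of genes detected. For this the 325 neurons were split by genes above 0 into 3 groups of like size, the few-gene, middle and many-gene neurons. The few-gene neurons (108 neurons, 6291 to 12807 genes) had a median share of 3.85% (0.0739% to 12.6%), the middle group 4.58% (1.79% to 13.2%) and the many-gene neurons (109 neurons, 14315 to 17193 genes) 5.34% (2.11% to 12.7%). The few-gene group was thus the one with the lowest shares as well as high ones. Its median was below that of the many-gene group in 4 of 5 plates, with log2 ratios from -0.61 in plate 2 to 0.01 in plate 4. Shares under 1% were found in 22 of 325 neurons (6.77%, exact 95% interval 4.29% to 10.1%), and all 22 were few-gene neurons, 22 of 108 (20.4%, 13.2% to 29.2%). In the middle and many-gene groups they were 0 of 108 and 0 of 109, which allow shares of up to 2.78% and 2.75% as 3 counts of the total (exact 95% upper bounds 3.36% and 3.33%).

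These neurons with little mitochondrial signal were not evenly spread over classes. They were 9 of the 22 neurons with neither Gfra3 nor Piezo2 (40.9%, 20.7% to 63.6%), 7 of 158 Gfra3 neurons (4.43%, 1.80% to 8.92%), 5 of 120 Piezo2 neurons (4.17%, 1.37% to 9.46%) and 1 of 25 with both. Of the 22 neurons with neither gene, 19 were few-gene neurons. By segment they were 13 of 167 TL and 9 of 158 LS neurons, and each of the 6 plates held at least 1.

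**Figure D5:**
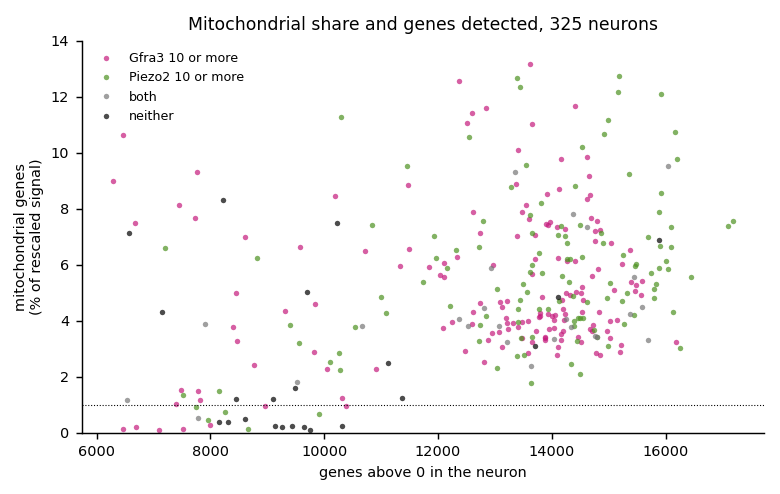
Share of signal on the 37 mitochondrial genes (vertical, %) against the number of genes above 0 (horizontal) in 325 neurons, coloured by Gfra3 and Piezo2 at 10 or more. The dotted line marks 1%. All 22 neurons below it are in the few-gene group (up to 12807 genes), and 9 of them have neither gene; neurons of that group also reach 12.6%.

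The members differed among themselves in this comparison. Of 31 tested, 23 were at least 1.5-fold lower in few-gene than in many-gene neurons, and 0 were higher; of 7818 genes, 20.8% were lower and 7.09% higher, and the median log2 ratio was -0.22 over all genes and -0.74 over the tested members. All but 2 mRNAs were among the 23, the exceptions being mt-Nd2 at a ratio of 0.696 and mt-Nd6 at 0.673. mt-Nd5 had a ratio of 0.505 (means 995 and 1971), mt-Nd1 one of 0.553 (3702 and 6694), mt-Co1 one of 0.568 (5137 and 9039) and mt-Cytb one of 0.578 (3119 and 5400). The rRNAs did not pass, with ratios of 0.863 for mt-Rnr1 and 0.861 for mt-Rnr2. Of the tRNAs, 12 of 16 tested were lower, while mt-Ti had a ratio of 1.27. mt-Ty was lowest at 0.412, with means of 6.76 and 16.4, so it passed the filter only through many-gene neurons. Of the 28 members with a mean of 10 or more in both groups, 20 were lower, 9 of them tRNAs.

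The direction was the same in all 5 plates for 14 of the 23 and in at least 4 plates for 22 of them. Counted over the 13 mRNAs alone, the share in few-gene neurons was 0.569 times that in many-gene neurons, and it was lower in 5 of 5 plates. Satellite glia markers went the other way, 9 of 10 tested being at least 1.5-fold higher in few-gene neurons, with a summed median of 2744 (0 to 100432) there and 2439 (2.95 to 9651) in many-gene neurons. Reads per neuron had medians of 1998934 in few-gene and 4355057 in many-gene neurons, the nuclear rRNA gene CT010467.1 took 18.7% and 11.9% of signal, and the nucleus-retained RNAs had summed medians of 327 and 645. The part of these in the members' values was not tested. In the deposited log2 values without rescaling, 13 members were lower and 2 higher in few-gene neurons. There 7.41% of all genes were lower and 48.3% higher, and the median of all genes was 0.55. In recovered reads scaled to 1000000, 9 of 15 members tested passed, all lower, where 15.7% of all genes were lower.

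Nuclear genes of the same complexes were compared in the same way. Between LS and TL, 0 of 75 genes of complexes I to V passed 1.5-fold in either direction, where 12.5% of all genes did. Their median log2 ratio was 0.05 beside 0.04 over all genes. The extremes were Sdha, the flavoprotein of complex II, at a ratio of 1.34 and Atp5g1, a ring subunit of ATP synthase, at 0.880. Between the classes, 8 of 75 were lower in Gfra3 neurons (a share near the 11.2% of all genes) and 0 higher, with a median log2 ratio of -0.38 beside -0.04 over all genes and -0.11 over the tested mitochondrial genes. Cyc1, the cytochrome c1 of complex III, was lowest at a ratio of 0.590 (means 450 and 764), followed in its own complexes by Atp5b, a catalytic ATP synthase subunit, at 0.604 and Cox7b of complex IV at 0.634. The highest was Ndufb8 of complex I at 1.03.

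Between few-gene and many-gene neurons, the nuclear subunits had a higher median ratio than the mitochondrial mRNAs, although single ratios overlapped. Of the 75, 3 were higher and 4 lower in few-gene neurons, where 7.09% of all genes were higher and 20.8% lower, and the median log2 ratio was 0.18 where that of all genes was -0.22. Atp5e, a small ATP synthase subunit, was highest at 1.63 and Uqcrc1, a core protein of complex III, lowest at 0.618. Across 325 neurons the summed nuclear subunits and the mitochondrial share had a rho of 0.03.

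A list of 24 nuclear genes that transcribe, process or stabilise mitochondrial RNA was mostly low, and 17 were tested between segments. None passed 1.5-fold between LS and TL, where 12.5% of all genes did in either direction. Lrpprc, which binds and stabilises mitochondrial mRNAs, was highest at 1.46. Tefm, the elongation factor of the mitochondrial RNA polymerase, was lowest at 0.747. Between classes 1 of 17 was lower in Gfra3 neurons (11.2% of all genes), Tbrg4 at 0.624, and the median log2 ratio was -0.30. Of 16 tested between few-gene and many-gene neurons, 3 were lower in the former (a share near the 20.8% of all genes), Polrmt, the mitochondrial RNA polymerase, most at 0.499, while Slirp, the partner of Lrpprc, was highest at 1.43. The summed level of this list had a rho of 0.03 with the mitochondrial share.

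Several measures of the libraries moved with the share. Across 325 neurons, rho was 0.55 with the sum of the nucleus-retained RNAs Malat1, Neat1 and Meg3, 0.30 with the number of genes above 0, -0.13 with reads, 0.11 with satellite glia markers and -0.18 with neuronal markers. Within plates 2 to 6 the value for the nucleus-retained RNAs ranged from 0.28 to 0.50 and that for genes above 0 from 0.21 to 0.38. With CT010467.1, a nuclear rRNA gene with a mean level of 148504, rho was -0.53. All are parts of 1 total per neuron, so a large part that rises lowers the others, and the part of each in the mitochondrial share was not tested.

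By the mean of the within-plate correlations over 320 neurons of plates 2 to 6, the nuclear genes whose level was most like the summed mitochondrial mRNAs were 4 of the chromosome 1 copies, Gm28437 at 0.85, Gm28661 at 0.84, Gm29216 at 0.84 and Gm10925 at 0.80. The next was Tmx2, a membrane protein of the thioredoxin family, at 0.54. The values of 2590 nuclear genes with a mean of at least 50 had a median of 0.04, and 98% of them lay between -0.44 and 0.43. The lowest were Eef1a1, a translation elongation factor, at -0.58, CT010467.1 at -0.54, S100a10 at -0.54, and the ribosomal protein genes Rps20 at -0.51 and Rpl10 at -0.50.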

How the data were processed

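Single neurons were sequenced by Smart-seq2 and Nextera XT with 75-base paired reads. Per the labels and the study's methods, the authors used bcl2fastq 2.15.0.4, STAR 2.4.1 and featureCounts 1.4.4 with build GRCm38.p3 and Ensembl 80, and deposited 1 table of log2 values of length-normalised expression plus 1 for the neurons that passed their filter, 325 of the 399 in the labels. The remaining 74 neurons and 13 bath controls are not analysed here. Settings for multi-mapped or overlapping reads and for strand are not given in the sources used here.

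Values were turned back (2 to the value, minus 1) and rescaled to 1000000 per neuron. Multiplying by GENCODE M21 gene lengths (same build) gave whole reads for 65.3% of values above 0 and for 100% of 8582 mitochondrial values (tolerance 1e-06), and for 0.000837% with lengths changed at random; for 7951 genes the length was found from the values. Genes with a mean of at least 10 in either group were compared by the ratio of means and called at 1.5-fold, without a test. Intervals are Clopper-Pearson at 95%. Thinning drew 400000 reads per neuron. Sequences and coordinates came from GENCODE M21. The recovery and ratio steps were tested on simulated data. The 2 rRNAs and 13 mRNAs were named singly, the tRNAs by count with the 3 highest and 3 lowest by mean, each nuclear list by its extremes, and 5 nuclear genes at each end of the correlation; other tRNAs, and the complex extremes between classes, were named after their values were seen. Some named items are not reported here. Members, lists and comparisons were chosen with earlier results of these data known. Python 3.11.15, numpy 2.4.6, pandas 2.3.3, scipy 1.17.1 and matplotlib 3.10.9 were used.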

Additional observations from a re-analysis of the deposited data

How the results depend on the processing

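No paired analysis was possible because the results come from no test, each segment being 1 sample with no replicate numbers in the labels; LS and TL were set side by side within plates 2 to 6 instead. Of 143 recomputed values, 119 stayed within the spread of the plates or within 1.5 times the reported count, and 24 moved. For the share by segment and by class that spread, 0.228 and 0.382 on the log2 scale, exceeded the reported log2 ratios of 0.06 and -0.23. Staying within it is thus a weak criterion there. Changes of sign were recorded only for log2 ratios of at least 1.5-fold, which none of the reported ratios recomputed here was, so none could be found. The median log2 ratio of the RNA handling list between few-gene and many-gene neurons went from -0.14 to 0.02 in recovered reads. The log2 ratio of the share of few-gene over many-gene neurons was -0.47, and became -0.81 for the 13 mRNAs alone and -1.16 with 4 groups in place of 3. Of the 11 members higher in LS, all tRNAs, the count became 5 at 2-fold, 6 with a filter at a mean of 50 and 1 in recovered reads scaled to 1000000; leaving out 1 plate in turn gave 8 to 12. In Gfra3 neurons alone the count was 5 and in Piezo2 neurons 11, the latter a partly different set. The single member called between classes became 3 at the smaller fold tried, and 0 at 2-fold, with a filter at 50, in recovered reads scaled to 1000000 and in deposited log2 values; leaving out plates gave 1 to 2. The 23 members lower with few genes became 7 at 2-fold. In deposited log2 values 13 were lower and 2 higher. In recovered reads scaled to 1000000, 9 of 15 tested were lower, beside 15.7% of all genes. Those reads left 15 members to test between segments and between classes too, in place of 31. Read shares were 59.0% for rRNAs and 0.181% for tRNAs (52.4% and 3.52% per length). Thinning left 16 members with a read in over 50% of neurons, against 26. In plate 6, 13 members passed in recovered reads scaled to 1000000, against 29. The cause of these moves was not tested, except that fewer genes pass a higher fold or filter. Chosen after seeing the data were the thinned and class-wise tRNA counts, the plate 6 setting, and the member counts without low-gene neurons, without neurons high in glia markers or without CT010467.1. Depth limits the tRNAs most, 20 of 22 having a median of 7 reads or fewer.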

Other observations

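Beyond the genes named above, the nuclear genes that followed the summed mitochondrial mRNAs most closely included mitochondrial enzymes and other genes. The share of either was not counted. Among the other genes, Hsd17b12 had a mean within-plate rho of 0.48 over 320 neurons, Atp1b1 one of 0.47 and Tecr one of 0.46. Sdha had a rho of 0.45. Uqcrc1 of complex III had a rho of 0.46, and Hadhb, a subunit of the trifunctional protein of fatty acid oxidation, one of 0.44. Mdh1, the cytosolic malate dehydrogenase, had 0.43, and Ckb, the brain-type creatine kinase, 0.47. At the opposite end, besides Eef1a1 at -0.58, the genes listed were mostly ribosomal proteins, such as Rpl4 at -0.49, Rps26 at -0.48 and Rpl27a at -0.48. These genes were chosen after their values were seen, and all levels of a neuron share its total.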
